A study of Homo sapiens with 24 samples.

Results

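Cal27, an established squamous carcinoma line derived from a human tongue tumour, was compared with and without exposure to cold atmospheric plasma. The 3 plasma libraries were set against the 3 untreated libraries of the same line, 6 of the 24 libraries in the series, and every gene with enough counts to be tested entered the comparison, 17371 genes in all. The wells of both groups held wild-type (WT) Cal27 in DMEM with fetal bovine serum and penicillin-streptomycin, plated the day before. Plasma wells received 60 s from the Piezo-CAP device, which ionises gas at close to room temperature by a piezoelectric element, untreated wells received 0 s, and RNA was taken with Trizol at 24 h. The same 2 groups exist for A375, Fadu and Hth83 (24 libraries in 8 groups of 3), which are used below only to show where Cal27 differed. Nothing in the labels says that the 3 libraries of a group were separate cultures, so the p-values cover the spread between libraries, which may be technical. All values come from 1 line, 1 exposure and 1 time point.

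The line carried the markers its label calls for. Of 18 squamous epithelium markers, 15 stood at 10 CPM (counts relative to the TMM-scaled library size) or more in the untreated libraries, with a median of 189 CPM untreated and 92.1 CPM after plasma. The sum of these markers was 6851 to 7047 CPM in the untreated and 5447 to 5496 CPM in the plasma libraries, led by LAMB3, and SOX2 was too low to be tested. Of 11 leukocyte markers 2 reached 1 CPM, their sum was 2.69 to 3.90 CPM untreated and 2.78 to 3.65 CPM after plasma, and CD3D, MS4A1, NKG7 and TYROBP were among those at 0. Of 9 fibroblast markers 2 reached 1 CPM and 1 reached 10 CPM untreated, led by COL1A1, with COL3A1 and DCN at 0. Their sum was 22.0 to 23.9 CPM untreated and 17.6 to 18.8 CPM after plasma. Of 7 thyroid follicle markers 2 reached 10 CPM untreated, led by PAX8. The sum of that list was 33.8 to 39.7 CPM untreated and 33.8 to 34.5 CPM after plasma. Of 7 melanocyte markers 4 reached 1 CPM, led by MITF, and 0 reached 10 CPM untreated. The plasma libraries were deeper, 32305634 to 35612078 counts against 27882581 to 30129627, so the groups did not overlap in depth, and 26536 to 26926 genes had a count in them against 24771 to 25115. Counts thinned to 27882581 per library left the direction and call of each of the 213 genes tracked across settings as they were. All 37 mitochondrial genes had 0 counts, so the mitochondrial share of reads is unknown. In bulk RNA, fewer cells of one state and less RNA per cell cannot be told apart.

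Plasma carries reactive oxygen and nitrogen species into the medium, and cells meet such oxidants through the transcription factor NRF2, which its adaptor KEAP1 otherwise sends to degradation. Interferons act through JAK kinases and a complex that includes STAT2 and IRF9, which binds the interferon-stimulated response element (ISRE) and switches on antiviral, antigen-presenting and chemokine genes, while NF-kB drives interleukins and neutrophil chemokines.

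Genes are said to have risen or fallen where the quasi-likelihood test of edgeR, adjusted over all genes by the method of Benjamini and Hochberg, gave a value under 0.05. By that rule 3801 genes rose (21.9%) and 4031 fell (23.2%), 45.1% of those tested, and in 52.7% of all genes tested the 3 plasma libraries lay wholly above or wholly below the 3 untreated ones. These shares are the background against which each list is read. Most changes were small, with a median size of 0.36 on the log2 scale among genes that passed, and 422 genes rose (2.43%) and 195 fell (1.12%) by at least 2-fold. The split depends on the scaling. Higher genes made up 48.5% of those that passed with TMM factors, 62.4% with library size alone and 83.1% on the deposited TPM, and these 2 settings shifted the median of all genes by 0.08 and 0.18. Where a list's median changed sign on TPM, its TPM median and that median relative to all genes are both given. After a gene name, the value is the log2 fold change, plasma minus untreated, ± SE, and levels are mean ± SD in CPM, each with n = 3 libraries per group.

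The largest fall among genes above 10 CPM was in FST, which encodes follistatin, a secreted antagonist of activin. It stood at 719.6, 729 and 706 CPM in the untreated libraries and 179.9, 186 and 180.4 CPM in the plasma libraries. The groups were far apart beside a within-group spread of a few percent (-1.98 ± 0.03, adjusted p = 4.29e-29). FST lies at chr5:53480409-53487134 on the plus strand of GRCh38. On the same footing the largest rise was in FOSB, which pairs with JUN proteins to form AP-1, at 20.4, 24.6 and 25.1 CPM in the untreated libraries and 109, 94.3 and 95.6 CPM in the plasma libraries. All 3 plasma libraries exceeded the highest untreated one severalfold (2.09 ± 0.07, adjusted p = 4.51e-18). Other large falls were in the collagenase MMP13 (-1.76 ± 0.15), the hair-follicle and wound keratin KRT17 (-1.63 ± 0.07), the thymidine phosphorylase TYMP (-1.45 ± 0.06) and the EGFR ligand AREG (-1.35 ± 0.03). Other large rises were in the long non-coding RNA LUCAT1 (1.25 ± 0.06), the inositol transporter SLC5A3 (1.28 ± 0.05), KLHL11 (1.28 ± 0.14), KCNQ1OT1 (1.49 ± 0.14) and GPR135 (1.40 ± 0.12). Reads of KRT17, KRT14, KRT6A, AKR1C1, HSPA1A, HSPA1B, IFNL2, IFNL3, the HLA genes and the ribosomal protein genes can also align to near-identical copies. Whether reads were assigned by strand is not stated, so KCNQ1OT1, IRF9, NMRAL2P and other genes that overlap a neighbour are uncertain as well.

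**Figure D1:**
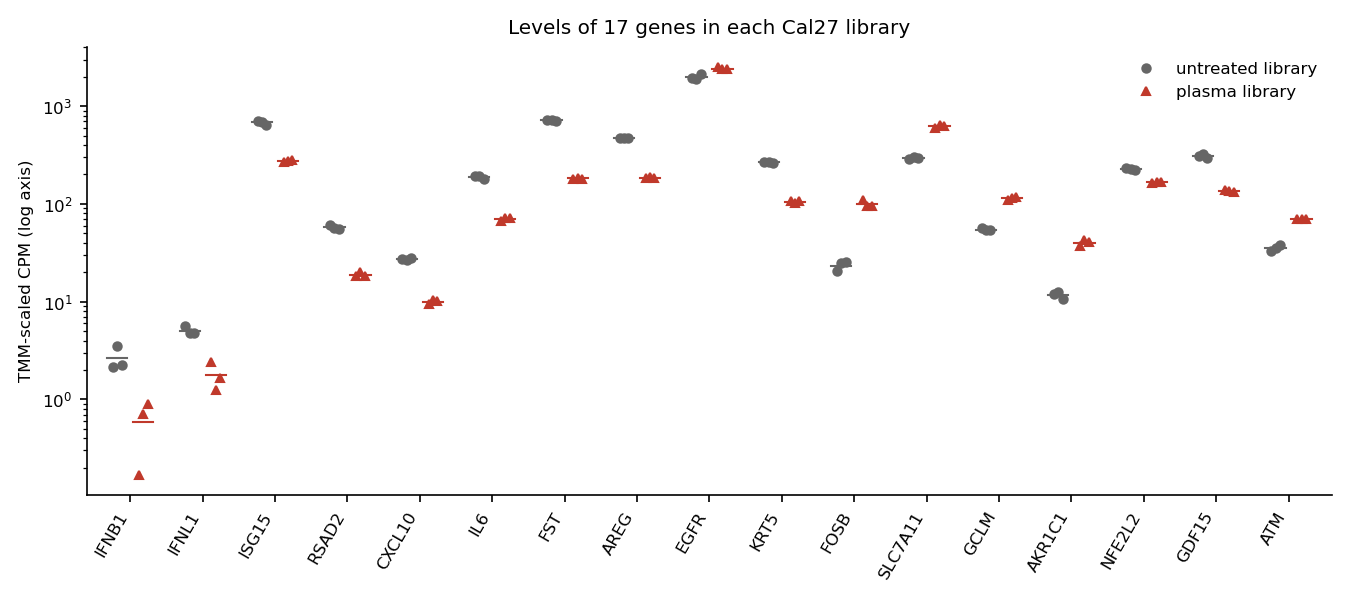
TMM-scaled CPM on a log axis of 17 genes in each of the 6 Cal27 libraries, with untreated libraries as grey circles, plasma libraries as red triangles and group means as lines. For every gene shown the 2 groups separate, from 718 to 182 CPM for FST and from 23.4 to 99.6 CPM for FOSB.

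The interferon ligands that could be tested were low and lower still after plasma. Of 16 ligand genes 5 passed the filter on low counts, and those 5 fell. The other 11, among them the interferon alpha genes listed and IFNG, were too low to test. A gene can pass that filter through the libraries of 1 group alone, so nothing is read from the count of ligands that fell. IFNB1, the fibroblast type I interferon, was at 2.14, 3.55 and 2.25 CPM in the untreated libraries and 0.170, 0.709 and 0.903 CPM in the plasma libraries. IFNL1, an epithelial type III interferon, was at 5.61, 4.73 and 4.78 CPM in the untreated libraries and 2.44, 1.25 and 1.66 CPM in the plasma libraries. Untreated and plasma libraries did not overlap for either gene (-2.16 ± 0.37, adjusted p = 2.68e-05, and -1.50 ± 0.21, adjusted p = 4.15e-07), but these are levels of a few CPM. IFNL2 (-2.16 ± 0.40), IFNL3 (-1.59 ± 0.37) and the epithelial type I ligand IFNE (-0.85 ± 0.18) fell as well, and IFNB1 and IFNL3 missed the threshold on unfiltered TPM (adjusted p = 0.102 and 0.141).

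Downstream of the ligands, receptors and kinases moved in both directions, whereas STAT2 and IRF9 fell. Among 13 receptors, JAK kinases and STAT factors 2 rose and 5 fell (median -0.02, 0.18 on TPM and -0.00 relative to all genes). The type I receptor chain IFNAR1 rose (0.32 ± 0.05) and the interferon gamma receptor chain IFNGR1 fell (-0.49 ± 0.05). STAT2 was at 190.2, 186 and 199 CPM in the untreated libraries and 161, 152 and 143 CPM in the plasma libraries, with no overlap (-0.33 ± 0.04, adjusted p = 9.29e-08), and was not called on TPM (adjusted p = 0.0909). Its DNA-binding partner IRF9 went from 3.58 ± 0.913 to 2.25 ± 0.0860 CPM (-0.67 ± 0.21) and was called neither on TPM (0.104) nor without untreated replicate 3 (-0.46, 0.0976). Of 10 interferon regulatory factors 7 fell and 0 rose (median -0.37). IRF7, which amplifies interferon production, went from 91.7 ± 8.37 to 37.8 ± 0.745 CPM (-1.28 ± 0.06), and IRF1, an early activator of antigen presentation genes, went from 88.01 ± 0.702 to 57.7 ± 1.92 CPM (-0.61 ± 0.05).

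Inhibitors of the pathway moved in both directions. Of 12 members 3 rose and 4 fell (median -0.08, 0.15 on TPM and -0.04 relative to all genes). Among those that fell were genes that interferon itself induces. USP18, which strips ISG15 from proteins and blocks the type I receptor, went from 73.03 ± 4.09 to 29.6 ± 0.736 CPM (-1.30 ± 0.06), and SOCS1 (-0.86 ± 0.18) and SOCS3 (-0.39 ± 0.06), inhibitors of JAK kinases, fell. SOCS3 was not called on unfiltered TPM (adjusted p = 0.131). PTPN11, the phosphatase SHP2, rose (0.53 ± 0.04).

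Sensors of foreign nucleic acid fell in part. Of 19 tested 2 rose and 9 fell (median -0.09, 0.05 on TPM and -0.13 relative to all genes). Those that fell included the DNA sensors ZBP1 (-1.56 ± 0.17) and AIM2 (-0.90 ± 0.08), the RNA sensor IFIH1, known as MDA5 (-0.67 ± 0.04), its relative DHX58 (-0.86 ± 0.06) and the Toll-like receptor adaptor MYD88 (-0.57 ± 0.07). CGAS, STING1 and RIGI, the central cytosolic DNA and RNA sensing genes, did not pass, at 0.10, 0.08 and 0.04. On TPM CGAS (0.32) and STING1 (0.30) did, and CGAS also did by counts without untreated replicate 1 (0.17, adjusted p = 0.0200). MAVS, the mitochondrial adaptor of the RNA sensors, rose (0.46 ± 0.05).

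The antiviral effectors fell almost throughout. Of 44 genes 41 fell, 1 rose and 2 did not pass (median -0.71, against -0.00 over all genes), compared with 23.2% of all genes falling. RSAD2, the radical SAM enzyme viperin, stood at 60.5, 57.3 and 55.6 CPM in the untreated libraries and 18.5, 19.9 and 18.4 CPM in the plasma libraries. Each plasma library was far below each untreated one (-1.61 ± 0.06, adjusted p = 2.4e-19). CMPK2, its neighbour on chromosome 2, went from 30.8 ± 1.94 to 11.2 ± 0.186 CPM (-1.47 ± 0.08). IFI6 (-1.34 ± 0.06), which protects the endoplasmic reticulum from viral replication, and OASL (-1.34 ± 0.05), a relative of the oligoadenylate synthetases, fell. All 6 genes of ISG15 conjugation fell (median -0.77). ISG15, the ubiquitin-like modifier, was at 712, 694 and 638 CPM in the untreated libraries and 266, 275 and 279 CPM in the plasma libraries, so the lowest untreated library held more than 2 times the level of the highest plasma one (-1.32 ± 0.04, adjusted p = 5.71e-23). UBE2L6, the enzyme that carries it (-0.73 ± 0.04), and HERC5, the ligase that attaches it (-0.81 ± 0.05), fell as well. Per kilobase of exon, IFI6 and ISG15 were at 833 and 724 CPM in untreated cells, above RSAD2 at 11.9 CPM.

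Of 9 guanylate-binding and APOL genes, whose products attack pathogen vacuoles, 8 fell and 1 rose (median -0.57). GBP1 went from 137 ± 3.57 to 65.6 ± 2.63 CPM (-1.06 ± 0.05) and GBP2 fell (-0.93 ± 0.10), while APOL6 rose (0.31 ± 0.04).

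**Figure D2:**
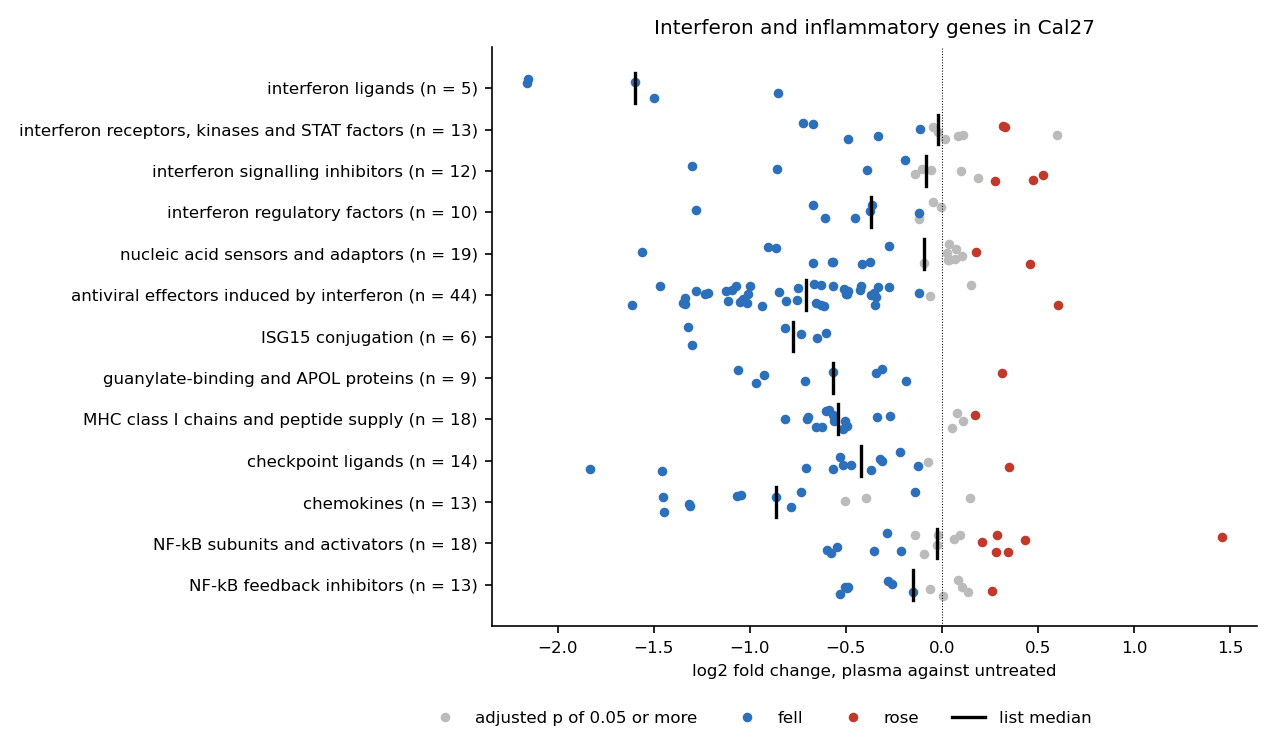
Log2 fold change of each tested member of 13 interferon and inflammatory gene lists in Cal27, with genes that fell in blue, that rose in red and that did not pass in grey, and a bar at each list's median. The antiviral effectors lie almost wholly to the left of 0 (41 of 44 fell), whereas receptors, sensors and NF-kB subunits lie on both sides.

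Promoters of tested genes were searched for the ISRE core (GAAA, 2 bases of any kind, GAAA) on either strand, in the 300 bases from 250 before to 50 after the RefSeq start (GRCh38.p14). It was present in 40 of 60 interferon-induced genes with a promoter sequence (66.7%), and in 37 of the 55 of them that fell (67.3%), against 357 of 11668 tested genes (3.06%). Among all genes that fell at least 2-fold it was in 23 of 111 (20.7%), and among those that rose at least 2-fold in 3 of 137 (2.19%). The windows below belong to the named genes with large falls and show the core in capitals with its flanks. They are TNFSF10 (chr3:172523578-172523647, minus strand, core 178 to 187 bases before the start), IFNL1 (chr19:39296163-39296238, plus strand, 2 overlapping cores), CXCL10 (chr4:76023679-76023747, minus strand) and ISG15 (chr1:1013354-1013429, plus strand, 2 overlapping cores 98 to 113 bases before the start). A run of TTTC marks a core that reads on the other strand.
TNFSF10: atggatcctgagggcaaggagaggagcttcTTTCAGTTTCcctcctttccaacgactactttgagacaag
IFNL1: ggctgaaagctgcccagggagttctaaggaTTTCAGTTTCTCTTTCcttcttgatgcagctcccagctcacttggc
CXCL10: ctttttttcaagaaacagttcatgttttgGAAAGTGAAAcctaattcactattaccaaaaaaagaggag
ISG15: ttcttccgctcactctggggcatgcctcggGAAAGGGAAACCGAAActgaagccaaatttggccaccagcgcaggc
A match describes letters in a window and no binding was measured.

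Antigen presentation genes fell too. Of 18 MHC class I and peptide supply genes 14 fell, 1 rose and 3 did not pass (median -0.54). HLA-B was at 839.7, 851 and 766 CPM in the untreated libraries and 519, 565 and 574 CPM in the plasma libraries, without overlap (-0.57 ± 0.04, adjusted p = 1.34e-11). HLA-F had the lowest value among the heavy chains (-0.82 ± 0.05), and B2M, the light chain they share, went from 2010 ± 29.1 to 1590 ± 15.4 CPM (-0.34 ± 0.03). The interferon-inducible immunoproteasome subunits PSMB9 (-0.69 ± 0.05) and PSMB10 (-0.70 ± 0.08) and the peptide transporter TAP1 (-0.66 ± 0.04) fell. Of 9 tested MHC class II genes 5 fell and 0 rose (median -0.69), at a median over all 10 listed of 2.47 CPM.

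Ligands and enzymes that restrain T and NK cells fell in 12 of 14 cases, with 1 rise (median -0.42). CD274, which encodes PD-L1, was at 55.3, 54.9 and 56.5 CPM in the untreated libraries and 34.4, 38.2 and 40.1 CPM in the plasma libraries. The lowest untreated library stood above the highest plasma library (-0.57 ± 0.06, adjusted p = 2.81e-09). LGALS9, galectin-9, a ligand of TIM-3, went from 20.8 ± 0.884 to 7.61 ± 0.339 CPM (-1.45 ± 0.10), and VSIR, known as VISTA (-0.70 ± 0.10), and the TIGIT ligand NECTIN2 (-0.53 ± 0.05) fell. Ligands that stimulate these cells were mixed, 2 rising and 5 falling of 15 (median -0.26, 0.09 on TPM and -0.10 relative to all genes), and the NKp30 ligand NCR3LG1 rose from 9.85 ± 1.25 to 25.4 ± 3.16 CPM (1.36 ± 0.10).

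Secreted inflammatory factors were lower as well. Of 13 chemokines 10 fell and 0 rose (median -0.86). The CXCR3 ligands CXCL10 and CXCL11, which draw T cells, went from 27.3 ± 0.405 to 10.00 ± 0.457 CPM (-1.45 ± 0.08) and from 22.7 ± 2.32 to 8.31 ± 0.798 CPM (-1.45 ± 0.10). The neutrophil chemokine CXCL8 was at 396, 409 and 351 CPM in the untreated libraries and 162, 206 and 183 CPM in the plasma libraries. The libraries of both groups varied, and the groups did not overlap (-1.07 ± 0.11, adjusted p = 0.000844). CXCL1 fell with a tighter spread, from 172 ± 5.48 to 83.6 ± 0.322 CPM (-1.04 ± 0.04). Of 13 genes of the interleukin 1 family 5 fell and 2 rose (median -0.49), with the ligands IL1A (-0.89 ± 0.03) and IL1B (-1.01 ± 0.03) down. The 2 that rose were the receptor chains IL1R1 (0.32 ± 0.11) and IL1RAP (0.34 ± 0.06). IL1R1 lost its call in the fit of 24 libraries (adjusted p = 0.112), after the trend with gene span or exon length was removed (0.225 and 0.126) and without plasma replicate 2 (0.0561) or 3 (0.0518), and IL1RAP after the exon length trend (0.126). Of 19 other cytokines 11 fell and 1 rose (median -0.35). IL6 was at 191, 192 and 178 CPM in the untreated libraries and 66.4, 72.1 and 71.8 CPM in the plasma libraries, without overlap (-1.42 ± 0.05, adjusted p = 6.99e-22). IL24 (-1.13 ± 0.08), the epithelial alarmin TSLP (-1.03 ± 0.09) and IL32 (-0.71 ± 0.05) fell, and the TNF family cytokine TNFSF15 rose (0.28 ± 0.06). Of 16 complement and acute phase genes 12 fell and 1 rose (median -0.51), including the protease C1R (-1.03 ± 0.05), the pentraxin PTX3 (-0.83 ± 0.07) and the siderophore-binding LCN2 (-0.71 ± 0.03), whereas the complement shield CD46 rose (0.32 ± 0.04).

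NF-kB subunits did not move together. Of 18 subunits and activators 6 rose and 6 fell (median -0.02, 0.19 on TPM and 0.00 relative to all genes). REL, the c-Rel subunit, was at 7.34, 6.27 and 9.26 CPM in the untreated libraries and 22.3, 21.3 and 19.5 CPM in the plasma libraries. Every plasma library had more than 2 times the level of any untreated one (1.46 ± 0.11, adjusted p = 3.34e-12). NFKB2 (-0.60 ± 0.04) and RELB (-0.55 ± 0.05), the pair of the non-canonical arm, fell, RELA fell less (-0.29 ± 0.04, with an adjusted p of 0.276 on TPM), and NFKB1 fell by counts (-0.21 ± 0.04) but stood at 0.02 on TPM. The upstream adaptor TRAF3 rose (0.29 ± 0.04). Of 13 feedback inhibitors 7 fell and 1 rose (median -0.15, 0.09 on TPM and -0.10 relative to all genes). TNIP1 (-0.49 ± 0.04) and NFKBIB (-0.53 ± 0.05) fell, and the 2 best known, TNFAIP3 or A20 (-0.26 ± 0.03) and NFKBIA or IkB alpha (-0.15 ± 0.04), fell by counts and on TPM stood at -0.02 and 0.09 without passing.

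The NF-kB motif (GGG, 2 bases of any kind, TTTCC), on either strand, was in the promoters of 14 of 60 genes of the chemokine, cytokine and NF-kB lists (23.3%), of 10 of the 30 that fell (33.3%) and of 2 of the 10 that rose (20%), against 247 of 11668 tested genes (2.12%). The genes that hold it did not share a direction. REL (chr2:60881498-60881567, plus strand, motif 37 to 46 bases before the start) rose, and IL6 (chr7:22727097-22727166, plus strand, 64 to 73 bases) and CXCL1 (chr4:73869284-73869353, plus strand, 70 to 79 bases) fell. Capitals mark the motif.
REL: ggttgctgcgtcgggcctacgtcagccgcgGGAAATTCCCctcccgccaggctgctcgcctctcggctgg
IL6: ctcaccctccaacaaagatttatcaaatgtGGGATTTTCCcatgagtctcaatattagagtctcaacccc
CXCL1: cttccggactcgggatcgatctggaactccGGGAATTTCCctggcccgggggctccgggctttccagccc
In REL the motif reads on the other strand.

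Redox genes moved in both directions, and the gene of NRF2 fell. NFE2L2, the gene of NRF2 itself, was at 234, 226 and 220.3 CPM in the untreated libraries and 163, 169 and 168 CPM in the plasma libraries, lower in all 3 plasma libraries (-0.44 ± 0.04, adjusted p = 2.42e-11). KEAP1 rose slightly (0.16 ± 0.05), as did CUL3, the ubiquitin ligase scaffold that acts with it (0.47 ± 0.05), and SQSTM1, the autophagy receptor p62 that binds KEAP1 (0.29 ± 0.03), and the small MAF partner MAFF fell (-0.80 ± 0.04). In all 5 of 11 regulators rose and 4 fell (median 0.03).

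Of 15 genes of cystine uptake, glutathione synthesis and export 8 rose and 3 fell (median 0.19). SLC7A11 encodes the transporting subunit of the xc- cystine antiporter. It was at 291, 299.6 and 298 CPM in the untreated libraries and 599, 646 and 633 CPM in the plasma libraries. GCLM, the modifier subunit of the rate-limiting ligase of glutathione synthesis, was at 56.5, 53.8 and 53.8 CPM in the untreated libraries and 108, 116 and 119 CPM in the plasma libraries. Both rose about 2-fold without overlap (1.08 ± 0.04, adjusted p = 1.1e-21, and 1.06 ± 0.05, adjusted p = 7.66e-18), as did the catalytic subunit GCLC (0.94 ± 0.04). The conjugate exporter ABCC3 rose (0.62 ± 0.05), and CHAC1, which degrades glutathione and is also an ATF4 target, fell (-1.01 ± 0.05).

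Reductases of aldehydes, quinones and disulfides divided. Of 19 aldo-keto reductase and quinone defence genes 11 rose and 2 fell (median 0.45). AKR1C1 was at 12.03, 12.4 and 10.6 CPM in the untreated libraries and 37.01, 42.9 and 40.4 CPM in the plasma libraries, with every plasma library far above every untreated one (1.78 ± 0.08, adjusted p = 5.55e-18). NMRAL2P, a transcribed pseudogene of the same response, went from 18.96 ± 1.21 to 68.8 ± 0.210 CPM (1.86 ± 0.06), TRIM16L went from 24.01 ± 1.98 to 54.5 ± 3.75 CPM (1.18 ± 0.07), and NQO1 (0.59 ± 0.04) and CYP4F11 (0.60 ± 0.08) rose less. Of 14 thioredoxin and peroxiredoxin genes 3 rose and 10 fell (median -0.18, 0.06 on TPM and -0.13 relative to all genes). Those that rose were the peroxiredoxin PRDX1 (0.14 ± 0.04), TXNRD1, the cytosolic thioredoxin reductase, from 1042 ± 12.9 to 1708 ± 12.2 CPM (0.71 ± 0.03), and SRXN1, which repairs oxidised peroxiredoxins, from 19.6 ± 0.946 to 36.1 ± 4.44 CPM (0.88 ± 0.08). The mitochondrial members TXN2 (-0.44 ± 0.05) and PRDX5 (-0.52 ± 0.04) fell. Among 14 glutathione peroxidases and transferases 1 rose and 5 fell (median -0.19, 0.03 on TPM and -0.16 relative to all genes), with GPX1 (-0.61 ± 0.05) and GPX4, which detoxifies lipid peroxides (-0.58 ± 0.05), down. Of 12 genes of superoxide and peroxide handling 3 rose and 6 fell (median -0.13, 0.04 on TPM and -0.14 relative to all genes).

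For NADPH and iron the changes were modest. Of 12 genes of NADPH supply 2 rose and 3 fell (median -0.03, 0.20 on TPM and 0.02 relative to all genes). The pentose phosphate enzyme PGD (0.30 ± 0.04) and the malic enzyme ME1 (0.34 ± 0.06) rose. Of 15 heme and iron genes 7 rose and 3 fell (median 0.14). HMOX1, heme oxygenase 1, was at 10.6, 11.6 and 12.4 CPM in the untreated libraries and 17.6, 15.3 and 14.2 CPM in the plasma libraries. The groups did not overlap, but the rise was small beside that of SLC7A11 (0.45 ± 0.10, adjusted p = 0.000414). The transferrin receptor TFRC (0.54 ± 0.03) and the iron-responsive RNA-binding protein IREB2 (0.49 ± 0.05) rose, and HMOX2 (-0.52 ± 0.04) and the biliverdin reductase BLVRB (-0.55 ± 0.05) fell.

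The antioxidant response element core TGACNNNGC was common, in 1772 of 11668 promoters (15.2%). It was in 15 of 71 redox genes (21.1%), in 7 of the 23 that rose (30.4%) and in 5 of the 24 that fell (20.8%). The named genes that hold it did not share a direction. CXCL10 (chr4:76023550-76023618, minus strand, 83 to 91 bases before the start) and KRT5 (chr12:52520592-52520644, minus strand, 228 to 236 bases) changed most among them and fell, as did IL24 and IL1A, while LUCAT1 (chr5:91314418-91314486, minus strand, 46 to 54 bases) and GCLM (chr1:93909431-93909494, minus strand, 26 to 34 bases) rose. In the 4 windows shown the core reads on the other strand, and in LUCAT1 it overlaps an AP-1 motif, TGANTCA.
CXCL10: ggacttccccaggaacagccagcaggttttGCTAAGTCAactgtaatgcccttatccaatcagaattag
KRT5: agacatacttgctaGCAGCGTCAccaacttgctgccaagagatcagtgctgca
GCLM: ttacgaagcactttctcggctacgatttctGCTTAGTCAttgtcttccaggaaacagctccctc
LUCAT1: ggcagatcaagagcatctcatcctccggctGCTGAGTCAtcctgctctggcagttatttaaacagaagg
Capitals mark the core.

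**Figure D3:**
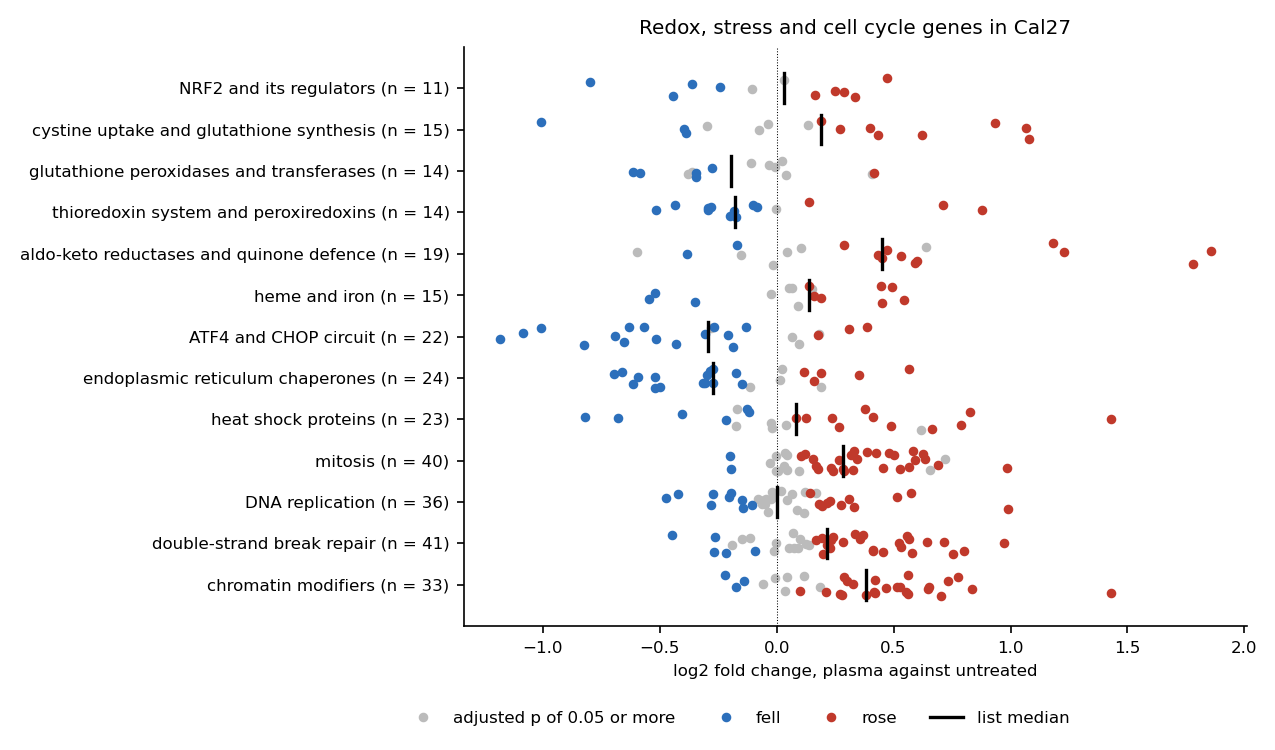
Log2 fold change of each tested member of 13 redox, stress and cell cycle lists in Cal27, coloured as genes that rose (red), fell (blue) or did not pass (grey), with list medians as bars. Aldo-keto reductases, mitosis, break repair and chromatin genes lean to the right of 0, ATF4 and endoplasmic reticulum genes to the left.

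The stress circuit run by ATF4 and CHOP was lower. Of its 22 genes 15 fell and 3 rose (median -0.29). DDIT3, which encodes CHOP, was at 95.7, 92.6 and 79.6 CPM in the untreated libraries and 41.6, 41.2 and 43.6 CPM in the plasma libraries, without overlap (-1.08 ± 0.06, adjusted p = 2.28e-15). ATF4 itself fell less (-0.31 ± 0.03) and was not called on TPM (adjusted p = 0.0852). The stress-secreted hormone GDF15 went from 309 ± 12.5 to 136 ± 3.34 CPM (-1.19 ± 0.04), and PPP1R15A, the phosphatase subunit that ends the response, fell (-0.83 ± 0.03). Amino acid genes were mixed, 5 rising and 8 falling of 22 (median -0.09, 0.14 on TPM and -0.05 relative to all genes), with the transporter SLC38A1 (0.47 ± 0.03) and the folate enzyme ALDH1L2 (0.53 ± 0.05) up. Of 24 endoplasmic reticulum chaperones and partners 15 fell and 5 rose (median -0.27). HSPA5, the chaperone BiP, was at 4441, 4420 and 4272 CPM in the untreated libraries and 2842, 2866 and 2862 CPM in the plasma libraries, and the groups were well apart (-0.62 ± 0.03, adjusted p = 3.89e-18). SDF2L1 (-0.66 ± 0.06) and CRELD2 (-0.70 ± 0.05) fell, while the degradation factors SEL1L (0.57 ± 0.04) and EDEM1 (0.35 ± 0.05) rose.

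Cytosolic heat shock proteins went the other way in part. Of 23 genes 11 rose and 6 fell (median 0.08). HSPA8, the constitutive HSC70, went from 753 ± 8.71 to 1193 ± 9.99 CPM (0.66 ± 0.03), and the inducible HSPA1A (0.83 ± 0.07) and HSPA1B (0.79 ± 0.05) and the co-chaperone DNAJB4 (0.49 ± 0.08) rose. The small heat shock proteins HSPB1 (-0.82 ± 0.05) and HSPB8 (-0.68 ± 0.09) fell.

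Some single genes of cell cycle arrest and cell death passed in either direction. CDKN1A, the cell cycle inhibitor p21, was at 138, 130.1 and 128 CPM in the untreated libraries and 85.7, 88.7 and 87.8 CPM in the plasma libraries, lower in each plasma library (-0.59 ± 0.04, adjusted p = 8.32e-13). GADD45A (-1.06 ± 0.04) and the death gene BBC3, or PUMA (-1.16 ± 0.07), fell further. The RNA-binding protein ZMAT3 (0.84 ± 0.11) and the ubiquitin ligase MDM2 (0.32 ± 0.05) rose, MDM2 missing the threshold after a trend with exon length was removed (adjusted p = 0.405). Of 15 genes of the BCL2 family 10 fell and 2 rose (median -0.31). Both sides of the family were among those that fell, the protective BCL2L1, or BCL-XL (-0.73 ± 0.04), and the death-promoting BAD (-0.58 ± 0.08) and BAK1 (-0.55 ± 0.05), and BCL2L11, or BIM, rose (0.36 ± 0.08). BAD was not called on unfiltered TPM (adjusted p = 0.0676). TNFSF10, the death ligand TRAIL and an interferon target, was at 24.9, 25.8 and 27.7 CPM in the untreated libraries and 8.21, 9.21 and 9.63 CPM in the plasma libraries, lower throughout (-1.54 ± 0.09, adjusted p = 3.03e-15).

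Genes of mitosis rose. Of 40 genes 27 rose and 2 fell (median 0.29), against 21.9% of all genes rising. ASPM, a spindle pole protein, was at 57.95, 58.1 and 59.4 CPM in the untreated libraries and 115, 115 and 118 CPM in the plasma libraries. Plasma libraries were at about 2 times the untreated level with almost no spread (0.99 ± 0.05, adjusted p = 1.08e-17). The kinesins KIF14 (0.69 ± 0.06) and KIF20B (0.64 ± 0.05) and the proliferation antigen MKI67 (0.63 ± 0.04) rose. DNA replication genes did not lean, with 11 rising and 9 falling of 36 (median 0.00). ORC1 (0.57 ± 0.08) and GINS1 (0.33 ± 0.07) rose, and TK1 (-0.47 ± 0.04) and RFC2 (-0.42 ± 0.05) fell. Of 41 double-strand break repair genes 24 rose and 5 fell (median 0.21). ATM, the kinase that signals breaks, was at 33.3, 35.6 and 37.9 CPM in the untreated libraries and 70.1, 69.4 and 69.8 CPM in the plasma libraries, and the groups did not overlap (0.97 ± 0.06, adjusted p = 3.36e-15). BRCA2 (0.75 ± 0.06) and PRKDC (0.71 ± 0.04) rose, and XRCC3 fell (-0.45 ± 0.06), though not on unfiltered TPM (adjusted p = 0.1403).

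Chromatin modifiers rose in 24 of 33 cases and fell in 3 (median 0.38). The histone methyltransferases KMT2C (0.73 ± 0.05), KMT2D (0.77 ± 0.10) and ASH1L (0.84 ± 0.06) and the remodelling subunit ARID2 (0.70 ± 0.07) rose. These genes are long, with a median span of 127808 bases, and once a trend of the change with exon length was removed the list's median relative to all genes was 0.11. On the same footing mitosis stood at 0.28 and break repair at 0.14. Of 336 zinc finger genes named by a ZNF number 116 rose and 45 fell (median 0.13), including ZNF292 (0.84 ± 0.04) and ZNF483 (0.85 ± 0.09).

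Over the whole table the direction of change went with gene length. In 5 equal groups by exon length, the share that rose was 8.59%, 8.76%, 16.9%, 28.96% and 47.2% from the shortest to the longest, and the share that fell was 22.2%, 33.7%, 28.5%, 21.4% and 12.3%. The median log2 change ran from -0.11 and -0.14 in the 2 shortest groups to 0.18 in the longest. By gene span with introns the share that rose went from 9.12% to 38.2%. Large rises were another matter. Of the 422 genes that rose at least 2-fold 281 were in the lowest of 5 equal groups by level, at 1.10 CPM or less. So were 80 of the 195 that fell as far. Long non-coding genes made up 163 of these rises and 29 of the falls, pseudogenes 91 and 15, and protein-coding genes 119 and 143. Among all 17371 genes tested 2405 were long non-coding, 1179 pseudogenes and 13174 protein-coding. Plasma libraries were deeper and held more genes with a count. With all libraries thinned to 27882581 counts, 429 genes rose and 184 fell at least 2-fold. The part of RNA quality and read coverage in these patterns was not tested.

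**Figure D4:**
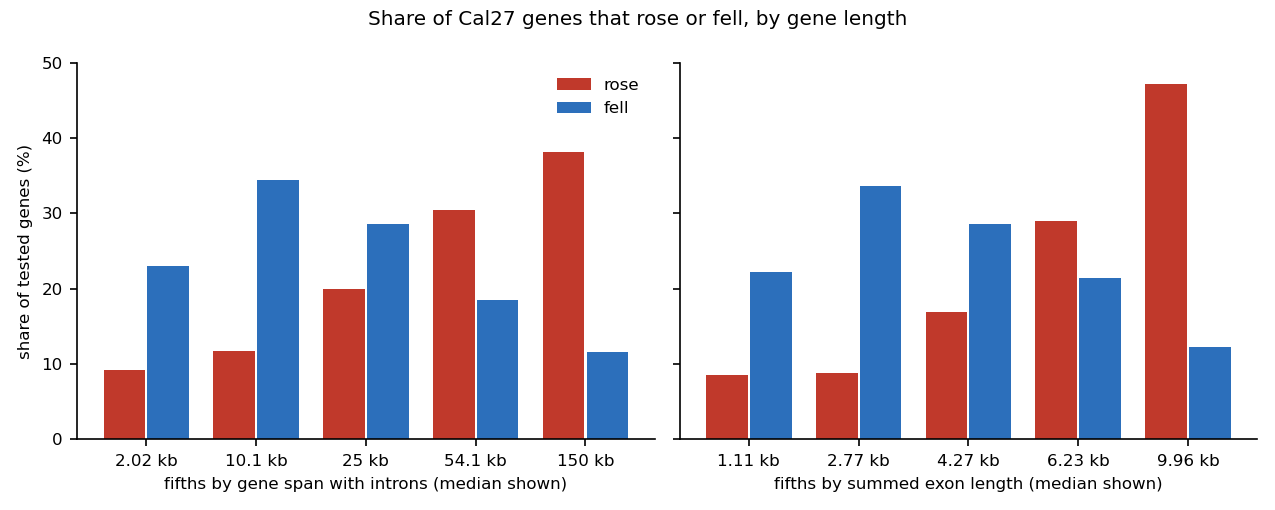
Share of tested Cal27 genes that rose (red) or fell (blue), in percent, in 5 equal groups by gene span with introns (left) and by summed exon length (right), labelled with each group's median length. The share that rose climbs from 8.59% in the group of shortest exon length to 47.2% in the longest.

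The EGFR family list did not lean, with 4 of 15 genes rising and 5 falling (median 0.05), near the shares of all genes. AREG was at 471, 477 and 476 CPM in the untreated libraries and 184, 189.5 and 184 CPM in the plasma libraries, without overlap (-1.35 ± 0.03, adjusted p = 3.38e-24). NRG1, the ligand of ERBB3, went from 372 ± 5.63 to 174 ± 2.77 CPM (-1.09 ± 0.04), HBEGF fell (-0.67 ± 0.03), and EREG fell less (-0.35 ± 0.04) and was not called on TPM (adjusted p = 0.0624). EGFR was at 1927, 1913 and 2138 CPM in the untreated libraries and 2496, 2396 and 2396 CPM in the plasma libraries and rose (0.29 ± 0.04), and ADAM17, which sheds its ligands, rose (0.45 ± 0.05). The calls of EGFR and ADAM10 (0.36 ± 0.05) were lost after the exon length trend was removed (adjusted p = 0.365 and 0.287). Of 12 AP-1 subunits 4 rose and 5 fell (median -0.03, 0.06 on TPM and -0.12 relative to all genes): FOS rose with FOSB, from 69.5 ± 0.961 to 135 ± 8.96 CPM (0.95 ± 0.05), and JUNB (-0.52 ± 0.04), JUND (-0.48 ± 0.05) and FOSL1 (-0.42 ± 0.03) fell. Of 31 genes of ERK output 5 rose and 13 fell (median -0.12, 0.14 on TPM and -0.04 relative to all genes), led downward by PHLDA1 (-0.85 ± 0.04).

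The AP-1 motif was in 583 of 11668 promoters (5.00%), in 16 of 137 genes that rose at least 2-fold (11.7%) and in 10 of 111 that fell as far (9.01%). FST holds 1 match 154 to 160 bases before its start (chr5:53480439-53480505, plus strand), shown in capitals.
FST: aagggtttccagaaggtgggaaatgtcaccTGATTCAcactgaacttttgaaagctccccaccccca

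In the activin and TGF-beta list 7 of 30 rose and 9 fell (median 0.01). Beside follistatin, INHBA, which encodes the activin A subunit that follistatin traps, fell from 856 ± 25.4 to 629.9 ± 9.63 CPM (-0.44 ± 0.03). The target ID3 fell (-1.02 ± 0.11) and the receptors TGFBR1 (0.63 ± 0.07) and BMPR1A (0.44 ± 0.06) rose. In the Wnt list 9 of 27 rose and 7 fell (median 0.05). The antagonist DKK1 went from 289.6 ± 5.899 to 131 ± 4.91 CPM (-1.14 ± 0.04) and RNF43, which removes Wnt receptors, fell (-0.88 ± 0.10), while the co-receptor LRP6 (0.70 ± 0.06) and the tumour suppressor APC (0.61 ± 0.06) rose. In the Notch list 6 of 19 rose and 2 fell (median 0.15), NOTCH2 upward (0.66 ± 0.10) and the effector HES4 downward (-1.13 ± 0.06). The Notch median relative to all genes was 0.05 after the exon length trend was removed and -0.01 after the gene span trend was removed. Of 20 YAP and TEAD genes 7 rose and 12 fell (median -0.27), the matrix protein CCN1 down (-0.64 ± 0.03) and the factor TEAD1 up (0.57 ± 0.04).

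Keratin and S100 genes were lower. Of 8 tested basal keratins 6 fell and 0 rose (median -0.82), and of 6 suprabasal and simple epithelium keratins 5 fell and 0 rose (median -0.63). KRT5 was at 269, 269.9 and 263 CPM in the untreated libraries and 107, 103 and 106 CPM in the plasma libraries, without overlap (-1.34 ± 0.04, adjusted p = 5.71e-23). KRT14 (-1.26 ± 0.19), at a few CPM, and KRT6A (-0.79 ± 0.08) fell, as did KRT8 (-0.59 ± 0.03) and KRT18 (-0.66 ± 0.04). Per kilobase of exon, untreated KRT18 and KRT8 were at 163 and 154 CPM, above KRT5 at 62.3 and KRT14 at 2.27. Of 10 tested S100 genes 9 fell and 0 rose (median -0.54), with S100A2 going from 418 ± 14.6 to 259 ± 7.42 CPM (-0.69 ± 0.04). Of 14 squamous transcription factors 1 rose and 7 fell (median -0.18, 0.03 on TPM and -0.15 relative to all genes). TP63, the squamous lineage factor, was at 338, 321 and 364 CPM in the untreated libraries and 231, 226 and 219.5 CPM in the plasma libraries, with no overlap (-0.60 ± 0.04, adjusted p = 1.16e-13). Of 21 genes of the cornified envelope and late differentiation 2 rose, 7 fell and 12 did not pass (median -0.17). Of 21 desmosome, hemidesmosome and laminin genes 8 rose and 10 fell (median -0.08, 0.15 on TPM and -0.04 relative to all genes), with the hemidesmosome genes ITGB4 (-0.55 ± 0.03) and COL17A1 (-0.49 ± 0.03) down. Tight and adherens junction genes did not lean, with 6 rising and 6 falling of 18 (median -0.07, 0.16 on TPM and -0.03 relative to all genes), the claudin CLDN1 among those that fell (-0.59 ± 0.03). Of 24 genes of mesenchymal transition and matrix 6 rose and 10 fell (median -0.07, 0.09 on TPM and -0.10 relative to all genes), the factor SNAI2 downward (-0.71 ± 0.06). Of 20 matrix protease genes 3 rose and 8 fell (median -0.29), the plasminogen activators PLAU (-0.73 ± 0.03) and PLAT (-0.80 ± 0.04) and ADAMTS1 (-1.04 ± 0.04) among those that fell.

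Genes of large, abundant complexes fell by small amounts in most members. Of 74 cytosolic ribosomal protein genes 67 fell and 0 rose (median -0.36), of 66 nuclear-encoded respiratory chain subunits 57 fell and 0 rose (-0.32), of 31 proteasome subunits 28 fell and 0 rose (-0.31), and of 77 mitochondrial ribosomal protein genes 52 fell and 1 rose (-0.26). RPL36 was at 297, 299 and 304 CPM in the untreated libraries and 206, 185 and 193 CPM in the plasma libraries, with no overlap (-0.63 ± 0.04, adjusted p = 1.41e-14). RPLP1 varied more between libraries (-0.54 ± 0.12, adjusted p = 0.0244), and without untreated replicate 1, untreated replicate 2 or plasma replicate 2 it missed the threshold (0.0786, 0.0854 and 0.0613). COX5B (-0.54 ± 0.05), NDUFB7 (-0.53 ± 0.06), PSMC3 (-0.51 ± 0.04), PSMB6 (-0.44 ± 0.04) and MRPL12 (-0.69 ± 0.10) fell, and MRPL19 was the mitochondrial exception (0.20 ± 0.05). These genes are short, with median spans of 5548, 12019, 17153 and 12399 bases, and after the exon length trend was removed the medians relative to all genes were -0.27, -0.23, -0.26 and -0.16. In glycolysis and hypoxia 7 of 29 rose and 11 fell (median -0.02, 0.20 on TPM and 0.02 relative to all genes), with GAPDH (-0.37 ± 0.03, not called on unfiltered TPM at an adjusted p of 0.118) and ENO1 (-0.29 ± 0.03, not called on TPM at an adjusted p of 0.07000) down and NDRG1 (0.57 ± 0.03) and PFKFB3 (0.57 ± 0.06) up. Of 20 genes of platinum and drug transport 7 rose and 4 fell (median 0.15), including the exporter ABCC5 (0.79 ± 0.07).

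To show where Cal27 differed, its response was set against the mean response of A375, Fadu and Hth83 in a fit of all 24 libraries. The labels call all 4 head and neck cancer cells. Fadu is a hypopharynx squamous line, here grown in MEM, A375 is otherwise known as a melanoma line and Hth83 as a thyroid carcinoma line. Of 23642 genes tested 36% differed, 18.3% being higher and 17.7% lower in Cal27. The values below are on the scale of that fit, with the difference of the log2 fold changes ± SE.

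FST differed most clearly. It fell in Cal27 and went from 48.9 ± 0.940 to 235 ± 4.28 CPM in Fadu (2.27 ± 0.05), while A375 and Hth83 moved little (0.27 ± 0.05 and -0.21 ± 0.04), a difference of -2.76 ± 0.05 (adjusted p = 3.06e-35). The Wnt antagonist DKK1 fell in Cal27 and rose in A375 (1.87 ± 0.10), Fadu (0.46 ± 0.06) and Hth83 (1.21 ± 0.08), a difference of -2.33 ± 0.08 (adjusted p = 1.32e-26). ADAMTS1 did likewise (-2.72 ± 0.08). SLC7A11 showed the reverse, rising in Cal27 and falling in A375 (-1.02 ± 0.07), Fadu (-1.48 ± 0.07) and Hth83 (-1.90 ± 0.07), a difference of 2.54 ± 0.08 (adjusted p = 1.34e-16). AKR1C1 also rose in Cal27 against falls elsewhere (2.68 ± 0.15). TXNRD1 (0.82 ± 0.04) and GCLM (0.73 ± 0.08) also stood above the mean of the others, though both rose in A375 (0.63 ± 0.04 and 1.21 ± 0.07) and GCLM also in Hth83 (0.43 ± 0.07). FOSB rose in Cal27 and A375 (1.40 ± 0.17) and fell in Fadu (-1.63 ± 0.17) and Hth83 (-0.66 ± 0.24). ATM rose in Cal27 and was at -0.39 ± 0.04 in Hth83, a difference from the 3 lines of 1.18 ± 0.05.

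For interferon genes the values of Cal27 lay nearer those of Fadu. The median of the 44 antiviral effectors was -0.71 in Cal27, -0.79 in Fadu, 0.02 in A375 and 0.29 in Hth83, and 30 of them were lower in Cal27 than the mean of the others. ISG15 fell in Cal27 and was at -0.08 ± 0.05 in Fadu, 0.30 ± 0.12 in A375 and 0.64 ± 0.10 in Hth83 (-1.61 ± 0.08), from untreated levels of 725, 225, 3.05 and 6.14 CPM in the order Cal27, Fadu, A375 and Hth83. CD274 fell in Cal27 and rose in Fadu (1.10 ± 0.09), a contrast with the 3 lines of -1.12 ± 0.10 (adjusted p = 2.36e-13).

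The ATF4 circuit had medians of -0.30, -0.97, -0.77 and -1.48 in Cal27, A375, Fadu and Hth83, below 0 in every line, and 17 of 22 genes were higher in Cal27 than the mean of the others. DDIT3 was 1.54 ± 0.11 above it. Proteasome subunits had a median of -0.31 in Cal27 and medians above 0 in A375 (0.41), Fadu (0.13) and Hth83 (0.26), with 29 of 31 genes lower in Cal27 and 0 higher. Respiratory chain subunits were at -0.33 in Cal27 and 0.17, 0.16 and 0.13 in A375, Fadu and Hth83, with 56 of 66 lower and 0 higher. Chromatin modifiers were higher in Cal27 for 26 of 33 genes and lower for 6. No trend with gene length was removed in this contrast, and the part of length in these differences was not tested. DNA replication genes were lower for 30 of 36, with medians of -0.00 in Cal27, 0.07 in Fadu, 0.41 in A375 and 0.87 in Hth83, so Cal27 lay near Fadu.

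**Figure D5:**
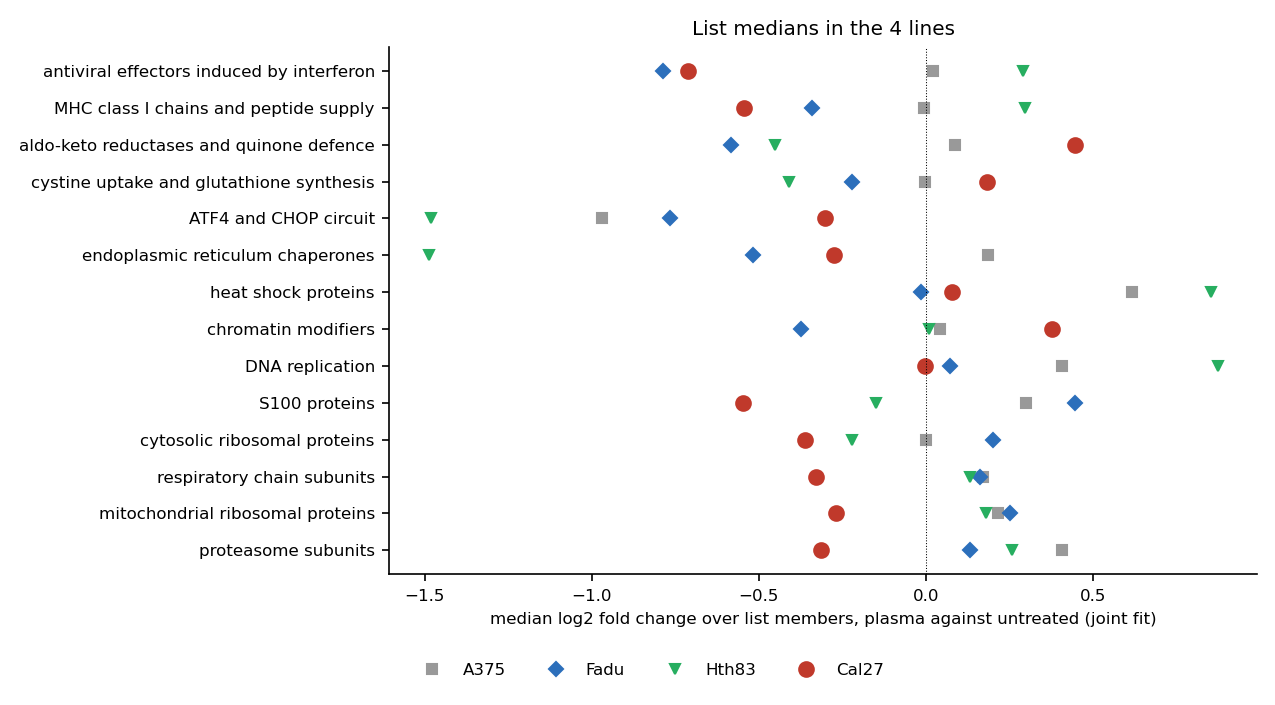
Median log2 fold change, plasma against untreated, over the members of 14 gene lists in Cal27 (red circles), A375 (grey squares), Fadu (blue diamonds) and Hth83 (green triangles), from the fit of 24 libraries. Cal27 is alone below 0 for respiratory chain, mitochondrial ribosomal and proteasome genes and lies beside Fadu for the antiviral effectors. No trend with gene length was removed.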

How the data were processed

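RNA was taken with Trizol and made into libraries with the SMARTER mRNA-Seq kit, per the labels' protocols. The submitters' processing notes name HISAT2 and GRCh38, with the aligner's version, the counting tool, the annotation release and the strand setting not given in the sources used here. The authors deposited a whole-number count and a TPM per gene. In each deposited TPM column the values equal counts divided by a length and rescaled, and for all 21636 genes of the same GENCODE 29 version that length was the gene's span with introns within 0.1%. Of 61533 gene IDs 61369 were named by the symbol table and 149 by GENCODE 29, and 15 had no name.

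Counts were tested with edgeR 4.0.16 in R 4.3.3 (TMM factors, filterByExpr with a minimum count of 10 and a total of 15, robust quasi-likelihood F test, Benjamini-Hochberg adjustment, threshold 0.05). Only the 6 Cal27 libraries entered that fit, and SE was taken as the log2 fold change over the root of F. The contrast with the other lines used all 24 libraries and its own scaling. TPM was tested with limma 3.58.1 on log2(TPM + 1) where 3 libraries reached 1 TPM, a scale that understates changes of low genes. DESeq2 1.42.0 was an alternative. Others were the scaling, the filters, a minimum fold of 1.2, length trends as offsets, thinning, a replicate block and leaving out each library. The scripts were tested on simulated data.

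Cal27 libraries held 27882581 to 35612078 counts, and pairs of one group differed beyond counting noise (chi-square per degree of freedom 3.10 to 6.51), so none was counted as a repeat. Same-numbered libraries did not deviate together and were not paired. Promoters are RefSeq sequences of GRCh38.p14, and 11668 of 17362 tested symbols had one. The exon length trend was added after the data were seen.

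Gene lists and the members of each were chosen with earlier results of these data known. Genes were named as the 12 largest rises and falls with at least 10 CPM and libraries that do not overlap, up to 4 rising and 4 falling members with at least 10 CPM per list, a panel, and, for the contrast, the 6 largest in each direction with at least 10 CPM in Cal27. The promoter windows shown belong to named genes with a match, and for each motif shown include the 1 or 2 that changed most. IFNL2, IFNL3, IFNE, ZBP1, SOCS1, NQO1, RELA, CGAS, STING1, RIGI, PRDX1, IL1R1 and IL1RAP, and the further promoter windows, were chosen after their values were seen. Some genes and lists are not reported here. Other files of the series entered only the contrast.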

Additional observations from a re-analysis of the deposited data

Results flagged for a closer look

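The responses of 26 named genes to plasma differed between Cal27 and the mean of A375, Fadu and Hth83 by a test of the difference itself in edgeR. Values are the Cal27 log2 fold change minus that mean.

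Among secreted and matrix genes the difference was -3.69 for SERPINB2, -2.76 for FST, -2.72 for ADAMTS1, -2.42 for IL6, -2.33 for DKK1, -2.32 for MMP13, -1.45 for INHBA and -1.38 for CXCL8. INHBA stood at -0.45 ± 0.07 in Cal27 and 4.60 ± 0.17 in Fadu, so Fadu supplied most of that difference. SERPINB2 and IL6 were under 1 CPM in 1 of the lines and MMP13 in 2, where a fold has little meaning.

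In the other direction the difference was 2.89 for MUC16, 2.85 for CA9, 2.77 for LURAP1L-AS1, 2.68 for AKR1C1, 2.60 for TNFSF15 and 2.54 for SLC7A11. MUC16 (-0.14 ± 0.17) and CA9 (-0.08 ± 0.11) did not pass in Cal27 itself. CA9 fell in A375 (-5.54 ± 0.18) and Fadu (-1.58 ± 0.20), and MUC16 in Fadu (-3.02 ± 0.20). CA9 and LURAP1L-AS1 were under 1 CPM in 1 line and MUC16 and TNFSF15 in 2.

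Interferon and antigen presentation genes were at -1.61 for ISG15, -1.12 for CD274 and -0.38 for B2M. Not every such gene of the panel passed in the same test. STAT2 (-0.04, adjusted p = 0.735), IRF1 (-0.14, 0.229), IRF9 (-0.37, 0.276) and TNFSF10 (-1.54, 0.0506) did not. IRF7 (-0.85) and HLA-B (-0.42) did. Against Fadu alone B2M was at -0.062 and missed the threshold (adjusted p = 0.285). Redox genes were at 0.82 for TXNRD1 and 0.73 for GCLM. Other genes of the panel were at 2.38 for FOSB, 1.54 for DDIT3, 1.18 for ATM, 0.52 for EGFR, 0.46 for HSPA5, -1.11 for KRT5 and -1.18 for HSPA1A. HSPA1A rose in all 4 lines, by 0.82 ± 0.12 in Cal27, 0.67 ± 0.11 in Fadu, 2.65 ± 0.15 in A375 and 2.70 ± 0.15 in Hth83, and against Fadu alone its difference turned to 0.15 (adjusted p = 0.543). KRT5 fell further in Fadu (-1.66 ± 0.07) than in Cal27 (-1.35 ± 0.08), and against Fadu alone its difference turned to 0.32 (adjusted p = 0.0200). KRT5 rose in Hth83 (0.59 ± 0.08) and stood at 0.35 ± 1.06 in A375, where the SE exceeds the change. HSPA5 fell in Cal27 (-0.62 ± 0.04), Fadu (-1.03 ± 0.04) and Hth83 (-2.89 ± 0.04) and rose in A375 (0.68 ± 0.04).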

How the results depend on the processing

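Of 213 genes followed through every alternative 174 kept their direction and call under all of them. The 26 contrast genes did so in 23 cases, and the 5 motif shares moved within their counting intervals with only the 250 bases before the start. NFKB1 turned from a fall to 0.020 on log2(TPM + 1) with or without the filter and 0.021 on log2(TPM + 0.1), and NFKBIA to 0.087 on all 3. Against Fadu alone the contrast turned to 0.15 for HSPA1A and 0.32 for KRT5, and that of B2M lost its call. A minimum fold of 1.2 ended the call of 29 genes. Not all of them had small changes, since IRF9 (-0.67), RPLP1 (-0.54) and HMOX1 (0.45) were among them. The cause of these moves was not tested, except that the minimum fold asks more of each gene.

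Counts of genes moved with scale and filter. The minimum fold left 2927 genes, 1530 higher and 1397 lower. Genes higher and lower numbered 6596 and 1341 on log2(TPM + 1), 5776 and 955 on the same scale with no filter, and 6633 and 1316 on log2(TPM + 0.1), with higher shares of 83.1%, 85.8% and 83.4%. Length offsets gave higher shares of 41.6% for gene span and 39.4% for exon length. Genes at least 2-fold higher numbered 195 with a stricter filter, 650 in the fit of 24 libraries and 709 on log2(TPM + 0.1). Genes at least 2-fold lower numbered 118 with the stricter filter, 57 on log2(TPM + 1), 50 with no filter and 58 on log2(TPM + 0.1). The contrast on TPM gave 7037 higher and 2353 lower. DESeq2 passed 7373 genes.

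Leaving out 1 library in turn gave 6956 to 7820 genes past the threshold, 3323 to 3878 higher, 3613 to 3942 lower, 360 to 539 at least 2-fold higher and 170 to 202 at least 2-fold lower. For the contrast the ranges were 7854 to 8222, 3735 to 3969 and 4066 to 4253. KRT5 in the contrast missed the threshold without untreated replicate 2 (adjusted p = 0.0515) or plasma replicate 2 (0.0502).

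Replicate numbers did not pair the libraries, since same-numbered deviations correlated at -0.036, 0.064 and -0.034. With the number as a replicate block 7704 genes passed, 48.4% of them higher, and RPLP1 alone of the genes followed lost its call (0.0817). The block within each line gave 8324 genes in the contrast. Genes under about 1 CPM, which hold most large rises, rest on few counts.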

Other observations

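Groups outside the accounts above are read against the 21.9% of all genes that rose and the 23.2% that fell. Of 27 cholesterol and fatty acid synthesis genes 12 rose and 6 fell (median 0.03), of 33 translation factors 5 rose and 19 fell (median -0.15, 0.08 on TPM and -0.10 relative to all genes), and of 20 cytosolic aminoacyl-tRNA synthetases 2 rose and 14 fell (median -0.14, 0.09 on TPM and -0.09 relative to all genes). Of 32 autophagy and lysosome genes 6 rose and 14 fell (median -0.09, 0.18 on TPM and -0.01 relative to all genes), and of 30 genes of RNA splicing 11 rose and 11 fell (median 0.04). Of 18 clock genes 6 rose and 5 fell (median 0.08). Of 21 tested snoRNA host genes 1 rose and 11 fell (median -0.29), and of 31 tested replication-dependent histone genes 4 rose and 4 fell (median 0.03). Of 6 PARP enzymes of the interferon response 5 fell and 0 rose (median -0.25), of 19 death ligands, receptors and caspases 1 rose and 9 fell (median -0.11, 0.11 on TPM and -0.08 relative to all genes), and of 7 tested metallothioneins 2 fell and 0 rose (median -0.27). Nothing is read from the clock, histone and metallothionein counts, which are few or near the shares of all genes.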
